A study of Mus musculus with 35 samples.

Results

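The 8 genes described here are outputs of the circadian clock: the PAR bZIP factors Dbp, Tef and Hlf, the bZIP repressor Nfil3, the DEC repressors Bhlhe40 and Bhlhe41, the repressor Ciart and the deubiquitinating enzyme Usp2. They were taken by gene name from the count tables and make up 8 of the 49568 gene names there. All 8 passed the filter on low counts, which left 18063 genes for testing. Usp2 is an enzyme, so 7 of the 8 genes encode regulators of transcription.

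The tables give counts of polyA RNA fragments per gene in hypothalamus from male mice of strain B6/J, in 35 libraries, all collected at Zeitgeber time 16 (16 h after lights-on). Mice of genotype "Control" either ate ad libitum (n = 10) or went without food for 16 h, from lights-on to collection (n = 10). Mice of genotype "PER2-S662D", whose PER2 protein has an aspartate in place of a phosphorylatable serine, had food ad libitum (n = 5) or none for the same 16 h (n = 5). Mice of genotype "Per2 ko" were fasted for 16 h (n = 5), and no fed group of that genotype was analysed here. How the mutant alleles were made is not given in the sources used here. The labels do not say that each library is a separate animal in so many words, so p-values measure the spread between these libraries. In bulk tissue, fewer cells of a type and less RNA per cell cannot be told apart.

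In the core clock, BMAL1 (gene Arntl) pairs with CLOCK or NPAS2 and activates genes through E-box sequences, among them the Per, Cry and Nr1d genes and most of the genes described here, and the PER and CRY proteins then repress that activation. Dbp, Tef and Hlf activate genes that carry a D-box and are controlled in turn by the clock. Nfil3 (E4BP4) binds the same D-box and represses. The DEC proteins and CIART (CHRONO) repress E-box genes themselves, and USP2 removes ubiquitin from clock proteins. The question the groups address is how fasting and altered PER2 act on hypothalamic RNA.

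Promoter windows from RefSeq (build GRCm38.p6) are shown for the members whose levels differed most between genotypes. Each runs from 250 bases before to 50 bases after the annotated start. They were searched for the E-box, the sequence through which BMAL1 and its partners activate genes. Windows were found for 7 of the 8 members, with 2 starts for Tef. Capitals mark each E-box, CACGTG (a palindrome, so both strands are searched at once). The Ciart window is chr3:95882179-95882478 on the minus strand, the Tef windows are chr15:81802423-81802722 and chr15:81811164-81811463 on the plus strand, the Dbp window is chr7:45704997-45705296 on the plus strand and the Nfil3 window is chr13:52980990-52981289 on the minus strand.
Ciart: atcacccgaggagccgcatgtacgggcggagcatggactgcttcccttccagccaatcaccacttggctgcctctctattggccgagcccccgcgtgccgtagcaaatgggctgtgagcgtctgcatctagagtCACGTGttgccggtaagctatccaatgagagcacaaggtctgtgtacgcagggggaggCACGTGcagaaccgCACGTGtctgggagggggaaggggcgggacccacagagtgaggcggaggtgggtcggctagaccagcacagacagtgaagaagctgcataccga
Tef, first start: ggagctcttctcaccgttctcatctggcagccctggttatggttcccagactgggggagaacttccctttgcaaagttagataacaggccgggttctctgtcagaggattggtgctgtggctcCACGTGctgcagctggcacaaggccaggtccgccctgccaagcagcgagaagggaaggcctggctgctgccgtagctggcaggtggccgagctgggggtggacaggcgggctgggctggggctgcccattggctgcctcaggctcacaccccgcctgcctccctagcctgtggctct
Tef, second start: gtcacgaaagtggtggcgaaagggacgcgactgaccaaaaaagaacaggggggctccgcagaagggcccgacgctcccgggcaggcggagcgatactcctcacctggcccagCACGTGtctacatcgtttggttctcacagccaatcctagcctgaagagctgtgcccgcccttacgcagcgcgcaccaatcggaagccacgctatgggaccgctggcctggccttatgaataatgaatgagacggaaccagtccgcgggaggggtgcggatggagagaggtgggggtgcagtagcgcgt
Dbp: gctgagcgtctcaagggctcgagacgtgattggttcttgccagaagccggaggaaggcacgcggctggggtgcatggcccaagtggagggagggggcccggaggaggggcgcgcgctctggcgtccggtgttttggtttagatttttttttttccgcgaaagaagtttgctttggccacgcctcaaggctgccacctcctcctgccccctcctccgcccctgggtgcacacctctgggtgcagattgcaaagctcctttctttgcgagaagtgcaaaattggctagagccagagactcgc
Nfil3: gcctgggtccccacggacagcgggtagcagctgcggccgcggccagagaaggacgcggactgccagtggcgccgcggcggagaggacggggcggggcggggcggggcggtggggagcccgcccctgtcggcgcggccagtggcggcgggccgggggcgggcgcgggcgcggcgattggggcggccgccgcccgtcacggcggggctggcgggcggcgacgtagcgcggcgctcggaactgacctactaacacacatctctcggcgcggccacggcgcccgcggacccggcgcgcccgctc

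The Ciart window held 3 E-boxes, whose first bases lay at -116, -58 and -44 from the start. Both Tef windows held 1 E-box, at -127 and -138. Bhlhe41, whose window is not shown, held 1 at -153, and the windows of Dbp, Hlf, Nfil3 and Usp2 held 0. Among all 32851 windows of the same length, 7.15% held at least 1 E-box and 0.0883% held 3 or more. The D-box was searched on both strands as TTATGTAA (0.938% of all windows) and TTACGTAA (0.119%), and the ROR element by its name (0.384%). None of these occurred in the 8 member windows. The matches describe letters in these windows and not binding.

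The members lay on 7 chromosomes. In the coordinates of the count tables (mm10, the same assembly as GRCm38), Dbp was at chr7:45705088-45710203, Tef at chr15:81802421-81826861, Hlf at chr11:90336536-90390895 and Nfil3 at chr13:52967209-52981073. Bhlhe40 (chr6:108660629-108666925) and Bhlhe41 (chr6:145858243-145865558) shared a chromosome, Ciart was at chr3:95878503-95882251 and Usp2 at chr9:44067021-44095627. Counting used no strand, so reads of a gene on the opposite strand cannot be told apart where exons overlap. That concerned 18.01% of the exon bases of Dbp (with Sphk2), 19.0% of those of Bhlhe41 (with Gm43909), 4.15% for Usp2, 2.51% for Bhlhe40, 2.45% for Tef and 0% for Hlf, Nfil3 and Ciart. Ciart shared 11.9% of its 50-base words with Gm9176, and every alignment of a multi-mapping read was counted. Dbp, Bhlhe41 and Ciart are therefore uncertain in that share of their sequence.

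Depth was 17959586 to 37027342 counts per library, with maxima of 37027342 in fed S662D, 34081435 in fasted S662D and 22036714 in control libraries. Counts of the members ran from 117 (Ciart) to 8602 (Tef) in a library. Per2 was at 28.2 ± 1.87 CPM in fed and 29.0 ± 2.45 in fasted controls (SD, n = 10 each), at 30.3 ± 2.00 in the libraries labelled Per2 knockout (n = 5), and at 18.7 ± 1.98 and 19.9 ± 2.38 in fed and fasted S662D libraries (n = 5 each). The whole-gene count of Per2 in the labelled knockout was thus no lower than in controls, and which exons an allele would lack is not given in the sources used here. Library numbers place control replicates 1 to 5, control replicates 6 to 10, the labelled knockout and S662D in separate ranges, and replicates 2, 3 and 4 of both S662D groups carry an additional final digit of unstated meaning. For S662D and the labelled knockout, library range moves with genotype and the 2 cannot be told apart, so results are also given against each set of controls. The labelled knockout numbers, 136 to 140, lie between those of the 2 control sets, while the S662D numbers begin at 171. Within each control set the fed libraries hold lower numbers than the fasted ones, so number order moves with feeding state. The same holds in S662D if the additional digit is set aside. Of the hypothalamic peptide markers, 8 of 8 were present in every group. Pituitary markers summed to at most 5.95 CPM in any library, and choroid plexus markers to 18.2 to 1537 CPM.

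Per exon length, Tef was the most abundant member in fed controls at 39.5 ± 1.23 CPM per kilobase of exon (CPM are counts scaled to library size; SD, n = 10), followed by Hlf at 30.1 ± 2.14 and Dbp at 24.1 ± 2.15. Bhlhe40 came next at 15.04 ± 1.07, then Usp2 at 8.67 ± 0.566 and Bhlhe41 at 8.37 ± 0.244, and Ciart at 5.17 ± 0.567 and Nfil3 at 4.76 ± 0.458 were the lowest. The activators of the PAR bZIP family thus stood above the repressors on this scale. Neighbours in this order whose ranges overlapped were Hlf and Dbp, Usp2 and Bhlhe41, and Ciart and Nfil3, although Hlf was above Dbp in 10 of 10 libraries. Usp2 was above Bhlhe41 in 7 of 10, and Ciart above Nfil3 in 8 of 10.

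The order differed in the S662D libraries at both ends. Tef was above Hlf per kilobase in 10 of 10 fed controls, 10 of 10 fasted controls and 5 of 5 labelled knockout libraries, with a median Tef to Hlf ratio of 1.30, 1.37 and 1.40. The same ratio had a median of 1.01 in fed and 0.987 in fasted S662D libraries, where Tef was above Hlf in 3 of 5 and 2 of 5. At the low end, Nfil3 exceeded Ciart per kilobase in 2 of 10 fed and 2 of 10 fasted controls and in 0 of 5 labelled knockout libraries, but in 5 of 5 fed and 5 of 5 fasted S662D libraries, with median Nfil3 to Ciart ratios of 2.23 and 1.75. These ratios are a description, and no test was made of them.

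**Figure D1:**
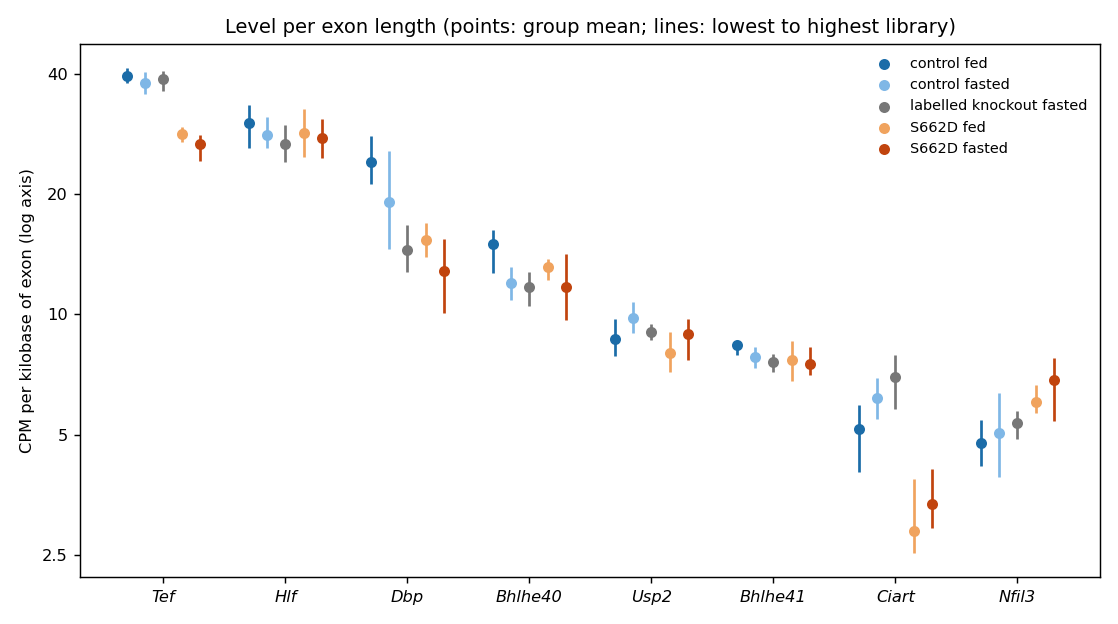
Level of each member per kilobase of exon (log axis, CPM per kb) in the 5 groups; points are group means and lines run from the lowest to the highest library. Tef lies above Hlf outside S662D and level with it in S662D, and Ciart falls below Nfil3 in S662D.

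Across the 5 groups, 7 of the 8 members differed in edgeR's quasi-likelihood test (adjusted p below 0.05), where 20.1% of all genes tested did. Tef had the smallest p of all 18063 genes in that test (adjusted p = 1.08e-16). Hlf was the member not called (adjusted p = 0.185). Because the members were chosen with earlier results of these data known, this count is a description.

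In S662D mice the PAR bZIP members Tef and Dbp and the repressor Ciart were below their control levels whether mice were fed or fasted, and the repressor Nfil3 was above it. In fed mice 5 of 8 members were called, 1 higher and 4 lower, beside 4.69% of all genes (3.12% higher and 1.57% lower). In fasted mice 4 of 8 were called, 1 higher and 3 lower, where 5.57% of all genes were (3.35% higher and 2.23% lower). The median absolute log2 fold change of the 8 members was 0.27 fed and 0.29 fasted, beside 0.10 and 0.10 over all genes tested. These 2 comparisons share no library with each other.

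Tef, an activator of D-box genes, ran from 298.4 to 324.9 CPM in fed controls (median 311.0), while the 5 fed S662D libraries stood at 217.9, 232.1, 224.9, 225.3 and 212.5 CPM. Every fed S662D library lay below every fed control. The log2 fold change was -0.48 (SE 0.0371), which is 0.716 times the control level (edgeR adjusted p = 3.44e-12), and no other gene had a smaller p in this comparison. In fasted mice, controls ran from 280.6 to 317.7 CPM (median 299.8) and S662D libraries stood at 211.7, 215.3, 213.7, 221.0 and 190.7 CPM, again without overlap. The fasted log2 fold change was -0.51 (SE 0.0371, adjusted p = 3.04e-13), rank 2 of all genes. Tef was called in 28 of 28 alternatives in each feeding state, with log2 fold changes from -0.56 to -0.45 fed and from -0.60 to -0.46 fasted.

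Ciart, which carries 3 E-boxes in the window printed above, ran from 9.11 to 13.4 CPM in fed controls (median 11.9) and stood at 5.92, 5.75, 8.78, 5.73 and 6.25 CPM in fed S662D libraries. No S662D library reached the lowest control, although replicate 3 at 8.78 CPM came close to it. The log2 fold change was -0.87 (SE 0.0967), or 0.549 times the control level (edgeR adjusted p = 5.14e-08). Fasted controls ran from 12.4 to 15.7 CPM (median 13.6) and fasted S662D libraries stood at 7.05, 9.28, 6.60, 6.85 and 8.09 CPM, so the fasted groups did not overlap either. The fasted log2 fold change was -0.88 (SE 0.0929, adjusted p = 2.34e-08). Ciart had the largest absolute fold change of the 8 members in both feeding states, and it was called in 28 of 28 alternatives in each.

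Dbp, a further D-box activator, ran from 63.6 to 83.7 CPM in fed controls (median 71.2) and stood at 47.0, 44.9, 50.8, 45.2 and 41.8 CPM in fed S662D libraries, with no overlap. The log2 fold change was -0.65 (SE 0.121), or 0.637 times the control level (edgeR adjusted p = 0.00275). In fasted mice controls spread from 43.5 to 76.8 CPM (median 52.9) and S662D libraries stood at 46.3, 44.7, 30.1, 37.1 and 34.1 CPM. Here 2 of the 5 S662D libraries fell within the control range, and the log2 fold change was -0.57 (SE 0.121, adjusted p = 0.00575). The call was kept in 25 of 28 alternatives fed and 24 of 28 fasted, and was lost in the 2 S662D libraries without the additional digit (log2 fold changes -0.70 fed and -0.51 fasted, adjusted p = 0.498 and 0.906). With the additional digit as a term and all libraries kept, the fed Dbp call was also lost, as only Tef and Ciart were called. Sphk2, whose exons overlap those of Dbp on the opposite strand, was higher in S662D (log2 fold changes 0.25 fed and 0.26 fasted). Reads from the shared exon bases cannot be told apart, and their part in the Dbp difference was not tested.

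The size of the Dbp difference depended on the control set. Fasted control replicates 1 to 5 averaged 48.4 ± 4.40 CPM and replicates 6 to 10 averaged 66.0 ± 12.6 CPM (SD, n = 5 each), and the fed sets averaged 67.5 ± 3.65 and 76.6 ± 5.201. Against fasted replicates 1 to 5 the S662D log2 fold change of Dbp was -0.33 (edgeR adjusted p = 0.0208), and against replicates 6 to 10 it was -0.78 (adjusted p = 0.00167). Between the 2 control sets themselves, over both feeding states, 0 of 8 members were called, where 0.391% of all genes were. By unadjusted p below 0.05, 3 members differed between the sets, beside 2022 of the 17655 genes tested. DESeq2 called 1 member, beside 1.43% of all genes. Dbp had the largest of these differences (log2 fold change 0.32 for replicates 6 to 10 over 1 to 5, edgeR adjusted p = 0.0771). Over both states the difference between control sets was 0.07 for Tef and -0.01 for Ciart. Within fed controls alone the sets differed in 2 of 8 members, beside 2.77% of all genes, and Dbp by 0.18 (edgeR adjusted p = 0.0459). Within fasted controls alone they differed in 0 members, beside 10.9% of all genes, with Dbp at 0.45 (edgeR adjusted p = 0.0783).

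Nfil3, the D-box repressor, moved opposite to Tef and Dbp. It ran from 8.48 to 11.1 CPM in fed controls (median 9.63) and stood at 12.8, 11.9, 13.5, 11.5 and 11.6 CPM in fed S662D libraries, without overlap. The log2 fold change was 0.34 (SE 0.0902), or 1.27 times the control level (edgeR adjusted p = 0.0235). In fasted mice controls ran from 7.93 to 12.9 CPM (median 10.3) and S662D libraries stood at 10.9, 14.3, 15.8, 15.7 and 12.7 CPM, of which 3 exceeded every control. The fasted log2 fold change was 0.44 (SE 0.0882, adjusted p = 0.00341). The call was kept in 20 of 28 alternatives fed and 25 of 28 fasted, and in the libraries without the additional digit the log2 fold changes were 0.33 and 0.21, neither called.

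Of the DEC repressors, Bhlhe40 was lower in fed S662D mice, from a control range of 59.6 to 76.3 CPM (median 70.9) to 62.4, 62.6, 64.8, 61.6 and 57.4 CPM. The ranges overlapped, the log2 fold change was -0.20 (SE 0.0588, edgeR adjusted p = 0.0436), and the call held in 8 of 28 alternatives. In fasted mice the Bhlhe40 log2 fold change was -0.04 (adjusted p = 0.759). Bhlhe41 was not called in either state, with log2 fold changes of -0.13 (95% interval -0.22 to -0.04) fed and -0.06 (-0.15 to 0.03) fasted. Nor was Usp2, at -0.11 (-0.22 to -0.0038) fed and -0.14 (-0.25 to -0.03) fasted. Hlf, the other PAR bZIP member, ran from 174.7 to 223.8 CPM in fed controls (median 201.5) and stood at 170.1, 205.6, 218.3, 190.1 and 165.8 CPM in fed S662D libraries. In the main fit its log2 fold changes were -0.08 (-0.20 to 0.04) fed and -0.03 (-0.15 to 0.10) fasted. The intervals of that fit left out falls of the size seen for Tef. Over the 28 alternatives the Hlf values ran from -0.34 to 0.02 fed, with 1 called. The fasted values ran from -0.18 to 0.06, with 0 called. Within S662D, the Hlf values of the libraries with the additional digit lay above those without it, at 190.1 to 218.3 against 165.8 and 170.1 CPM fed and 180.5 to 205.7 against 164.1 and 170.3 CPM fasted.

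The few comparisons restricted to one set of libraries show which members were among the genes still called. Against fed control replicates 6 to 10 alone, Tef, Ciart and Dbp were called in a comparison that called 33 genes in all (0.185% of those tested). Against fed replicates 1 to 5 alone, 4 members were called among 1741 genes. With only the 2 fed S662D libraries that lack the additional digit, Tef and Ciart were called among 16 genes. With the 3 that carry it, 4 members were called among 3106 genes. The sets differ in the number of libraries as well. Leaving out fed S662D replicate 2, 3 or 4, which carry the digit, took the number of genes called from 847 to 122, 150 and 66, with 3 members among them each time, and leaving out replicate 1 or 5 took it to 1667 and 1612, with 6 and 4 members. Across these 4 sets the fed log2 fold change of Tef stayed between -0.53 and -0.45 and that of Ciart between -0.94 and -0.82.

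**Figure D2:**
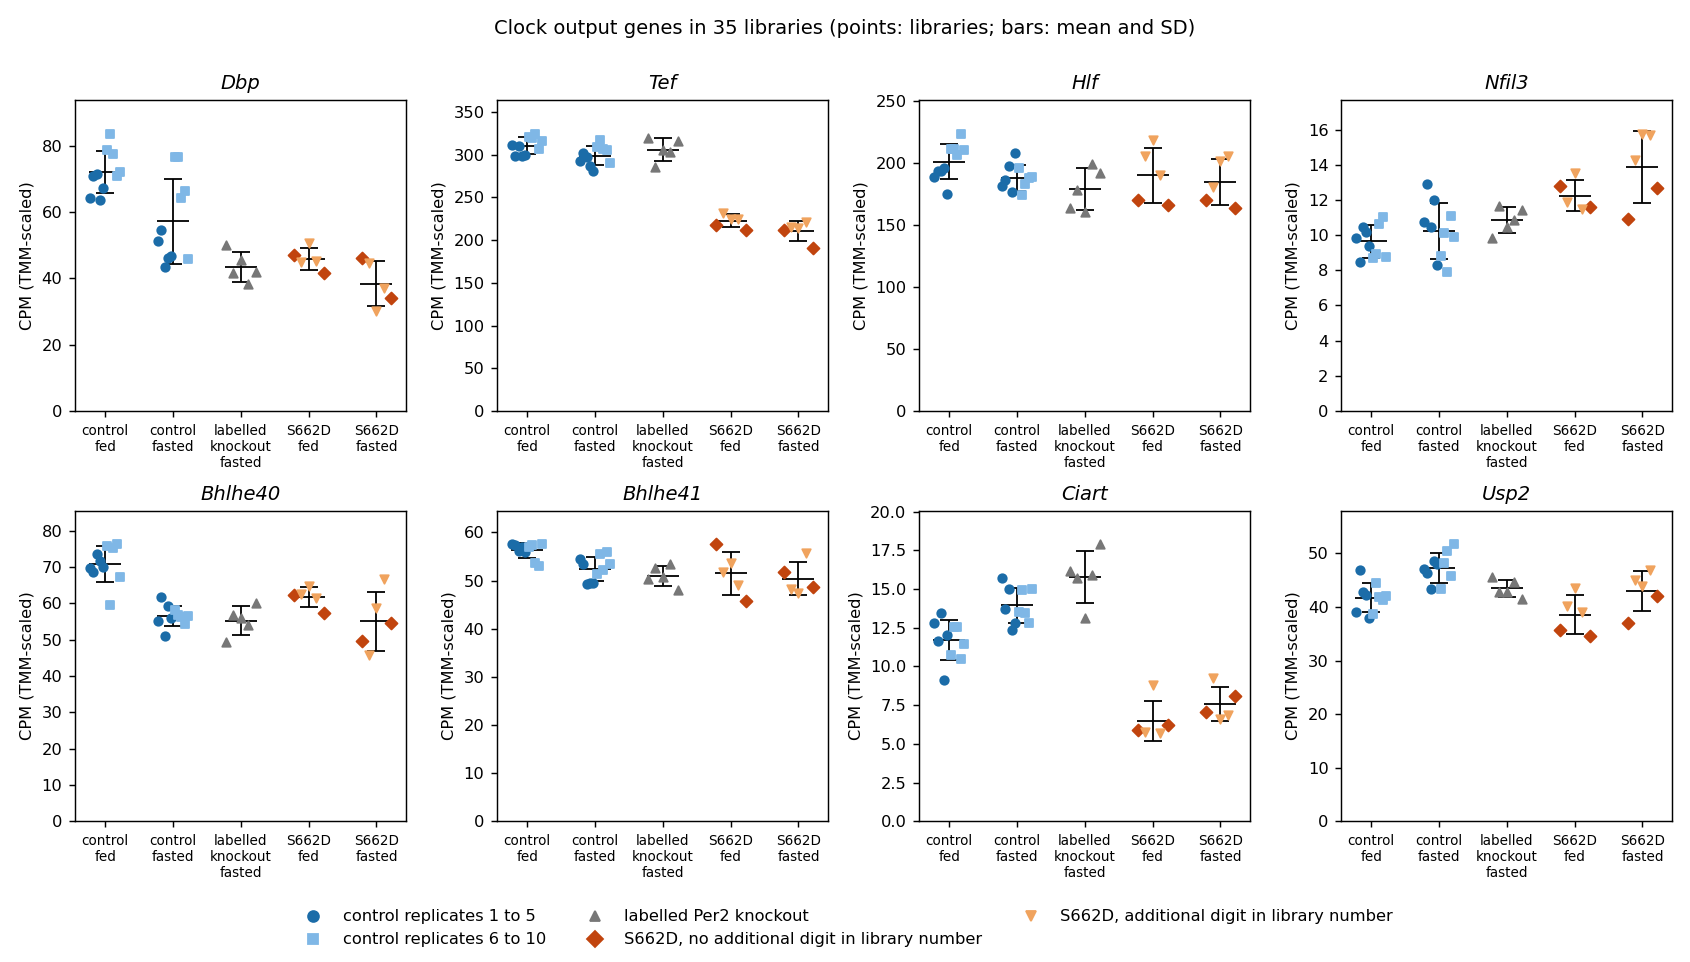
Level of each member in every library (CPM, TMM-scaled, axis from 0) by group, with mean and SD as bars and the library set as colour and symbol. Tef in S662D lies below all control and labelled knockout libraries, Ciart in S662D lies below the controls of the same feeding state, and Dbp in fasted controls is higher in 4 of the 5 libraries of replicates 6 to 10 than in any of replicates 1 to 5.

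Other marker genes moved with S662D as well. Of 4 endothelial markers, 2 were called higher fed and 3 fasted, with a summed level of 159 to 188 CPM in fed S662D against 146 to 176 in fed controls, and of 138 to 192 against 127 to 151 fasted. Of 5 oligodendrocyte markers, 2 were called lower in fed S662D mice (7006 to 8385 CPM summed, against 7059 to 9473) and 0 in fasted mice (8431 to 9061, against 7855 to 8791). Markers of the suprachiasmatic nucleus, the central clock, summed to 90.0 to 132 CPM in fed S662D libraries against 87.0 to 112 in fed controls, with 0 of 6 called. Rgs16 made up most of that sum, with means of 82.7 CPM in fed S662D libraries and 78.2 in fed controls. Thalamus markers summed to 513 to 780 CPM in fed and 593 to 728 in fasted S662D libraries against 487 to 620 and 499 to 635 in controls, with 0 of 4 called in either state. By unadjusted edgeR p below 0.05, 1 of 4 differed fed and 3 of 4 fasted, beside 3798 and 3757 of the 18063 genes tested. Hypothalamus markers summed to 547 to 687 CPM in fed S662D libraries against 507 to 727 in fed controls. Fasted, the sums were 510 to 707 against 502 to 720. Of these 8 markers, 0 were called in either state, and 2 fed and 3 fasted had an unadjusted edgeR p below 0.05. Within that list the means moved both ways. Mean Hcrt was 79.3 CPM in fed and 85.0 in fasted S662D libraries against 97.1 and 105.6 in controls. Mean Pmch was 85.8 and 84.5 against 106.8 and 110.8, and mean Avp was higher, at 243 and 267 against 228 and 213. Of 5 glucocorticoid-induced genes, 1 was called lower in fed S662D mice (273 to 314 CPM summed, against 307 to 397) and 0 in fasted mice (467 to 841, against 489 to 809). The part of these markers in the differences of the members was not tested.

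In the libraries labelled Per2 knockout, Tef and Ciart stood at or above their control levels. Against fasted controls 0 of 8 members were called with edgeR, where 0.0277% of all genes were (0.00554% higher and 0.0221% lower). An unadjusted p below 0.05 was found for 3 members, beside 1097 of the 18063 genes tested, and DESeq2 called 0 members. Tef stood at 319.7, 285.7, 305.4, 302.9 and 316.3 CPM, of which 1 exceeded every fasted control, with a log2 fold change of 0.03 (95% interval -0.04 to 0.11). Ciart stood at 16.2, 15.7, 13.1, 15.9 and 17.9 CPM, of which 4 exceeded every fasted control. It was higher by 0.18 on the log2 scale (SE 0.0872, edgeR adjusted p = 0.817), which did not pass the test.

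Dbp in the labelled knockout libraries was 50.2, 41.5, 45.4, 38.3 and 42.1 CPM, with 3 of 5 below every fasted control. On the log2 scale the difference was -0.40 (SE 0.121, edgeR adjusted p = 0.5997). It was -0.16 (adjusted p = 0.982) against fasted control replicates 1 to 5 and -0.60 (adjusted p = 0.0251) against replicates 6 to 10, so the choice of controls decided the call. Usp2 had a log2 fold change of -0.12 (95% interval -0.23 to -0.01). The other 4 members, Hlf, Nfil3, Bhlhe40 and Bhlhe41, had log2 fold changes between -0.07 and 0.09. Nfil3 stood at 9.87, 11.6, 10.5, 10.9 and 11.5 CPM there, all within the range of fasted controls.

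Set directly against fasted S662D, the labelled knockout libraries differed in 3 of 8 members, 2 higher and 1 lower, where 7.34% of all genes were called (2.61% higher and 4.72% lower). Tef was higher by 0.54 on the log2 scale (SE 0.0421, edgeR adjusted p = 2.54e-12) and Ciart by 1.05 (SE 0.104, adjusted p = 2.66e-09), 2.08 times the S662D level, both without overlap. Nfil3 was lower, by -0.35 on the log2 scale (SE 0.103; edgeR adjusted p = 0.0316), and that call held in 11 of 20 alternatives. Dbp was not called between these 2 groups (log2 fold change 0.17, 95% interval -0.11 to 0.46). Among the marker lists, 3 of 4 endothelial markers were called lower in the labelled knockout (122 to 141 CPM summed, against 138 to 192 in fasted S662D), 2 of 4 thalamus markers lower (481 to 645, against 593 to 728) and 2 of 8 hypothalamus markers higher (558 to 729, against 510 to 707), and their part in the members' differences was not tested. This comparison and the 2 against fasted controls share libraries.

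**Figure D3:**
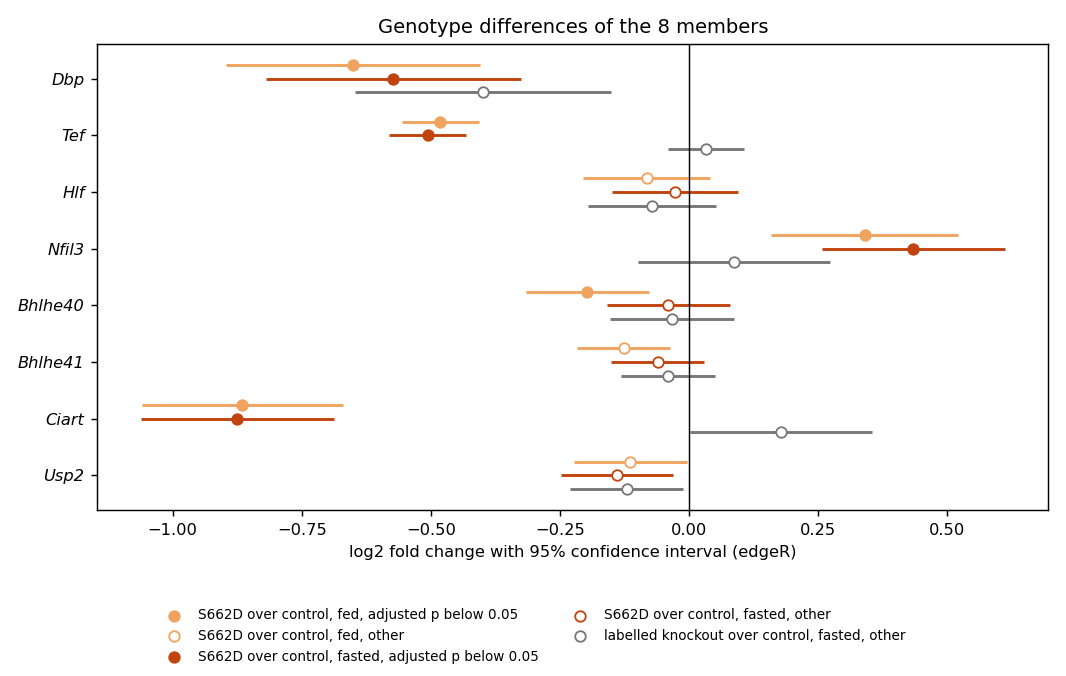
Log2 fold change of each member over control (horizontal axis) with its 95% confidence interval, for fed S662D, fasted S662D and the fasted libraries labelled Per2 knockout; filled points have an adjusted p below 0.05. The S662D points of Tef, Ciart and Dbp lie left of 0 and those of Nfil3 right of it, and no point of the labelled knockout is filled.

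Fasting moved repressors in both directions in control mice. In control mice 4 of 8 members were called, where 3.88% of all genes were: Ciart and Usp2 rose (2.20% of genes were called higher) and Bhlhe40 and Dbp fell (1.68% lower). The median absolute log2 fold change was 0.14 over the 8 members and 0.06 over all genes. This comparison shares the fed controls with the fed S662D comparison and the fasted controls with the fasted ones.

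Bhlhe40 had the smallest adjusted p of the members. It ran from 59.6 to 76.3 CPM in fed controls (median 70.9) and from 51.1 to 61.9 CPM in fasted controls (median 56.2), and 9 of 10 fed libraries lay above every fasted one. The log2 fold change was -0.32 (SE 0.0482, edgeR adjusted p = 8.04e-06), and it was called in 29 of 29 alternatives and within each control set. Usp2 ran from 38.0 to 46.9 CPM fed and from 43.3 to 51.8 CPM fasted, a rise of 0.18 on the log2 scale (SE 0.0443, edgeR adjusted p = 0.00936). This rise was called in 27 of 29 alternatives and in neither control set taken alone.

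Ciart ran from 9.11 to 13.4 CPM in fed controls (median 11.9) and from 12.4 to 15.7 CPM in fasted ones (median 13.6), so that 7 of 10 fasted libraries lay above every fed one. It rose with a log2 fold change of 0.25 (SE 0.0734; edgeR adjusted p = 0.0362). The call was kept in 19 of 29 alternatives, with log2 fold changes from 0.22 to 0.28, and in neither control set taken alone. Dbp fell by 0.33 on the log2 scale (SE 0.0961, adjusted p = 0.0434), and its call was kept in 12 of 29 alternatives. Within control replicates 1 to 5 the Dbp value was -0.48 (adjusted p = 0.000893) and within replicates 6 to 10 it was -0.21 (adjusted p = 0.337). Tef (-0.06), Hlf (-0.10), Nfil3 (0.08) and Bhlhe41 (-0.10) were not called.

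In S662D mice fasting gave 0 of 8 members called with edgeR, where 2.64% of all genes were (1.8% higher and 0.83% lower). An unadjusted p below 0.05 was found for 3 members, beside 2588 of the 18063 genes tested, and DESeq2 called 0 members. Ciart stood at 5.73 to 8.78 CPM fed and 6.60 to 9.28 CPM fasted, and Usp2 at 34.5 to 43.6 CPM fed and 37.1 to 46.9 CPM fasted, with overlap for both. Bhlhe40 stood at 57.4 to 64.8 CPM fed and at 49.7, 45.7, 58.7, 66.7 and 54.6 CPM fasted. The differences were -0.25 for Dbp, -0.17 for Bhlhe40, 0.24 for Ciart and 0.15 for Usp2 on the log2 scale. The test of the difference between the fasting responses of the 2 genotypes called 0 of 8 members and 0% of all genes. Below an unadjusted p of 0.05 were 0 members, beside 1151 of the 18063 genes tested, and DESeq2 called 0 members. The largest difference was that of Bhlhe40, 0.16 on the log2 scale (95% interval -0.01 to 0.32, adjusted p = 0.778), and for Ciart it was -0.01 (-0.28 to 0.26). The 5 glucocorticoid-induced marker genes rose in both genotypes, 5 of 5 called in each, from 307 to 397 CPM summed in fed controls to 489 to 809 in fasted controls. Suprachiasmatic markers summed to 87.0 to 112 CPM in fed and 68.7 to 93.0 in fasted controls, with 1 of 6 called lower. Rgs16 made up most of that sum, with means of 78.2 CPM in fed and 61.3 in fasted controls. The means of Lhx1 were 9.46 and 8.75, of Vip 5.44 and 5.29 and of Six6 3.53 and 2.84. Those of Nms were 0.606 and 0.629 and those of Prok2 0.408 and 0.353. In control mice fasting also lowered 2 of 5 microglia markers (159 to 185 CPM summed fed, 130 to 185 fasted), 1 of 4 endothelial markers (146 to 176 and 127 to 151) and 1 of 4 thalamus markers (487 to 620 and 499 to 635). It raised 1 of 5 oligodendrocyte markers (7059 to 9473 and 7855 to 8791) and 1 of 8 hypothalamus markers (507 to 727 and 502 to 720), and of 5 astrocyte markers 1 rose and 1 fell (1677 to 1917 and 1669 to 1972). In S662D mice 1 of 5 microglia markers was lower on fasting (161 to 181 and 147 to 177), and 1 of 5 oligodendrocyte (7006 to 8385 and 8431 to 9061) and 1 of 5 astrocyte markers (1720 to 2047 and 1774 to 2070) were higher. The part of all these markers in the members' responses was not tested.

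**Figure D4:**
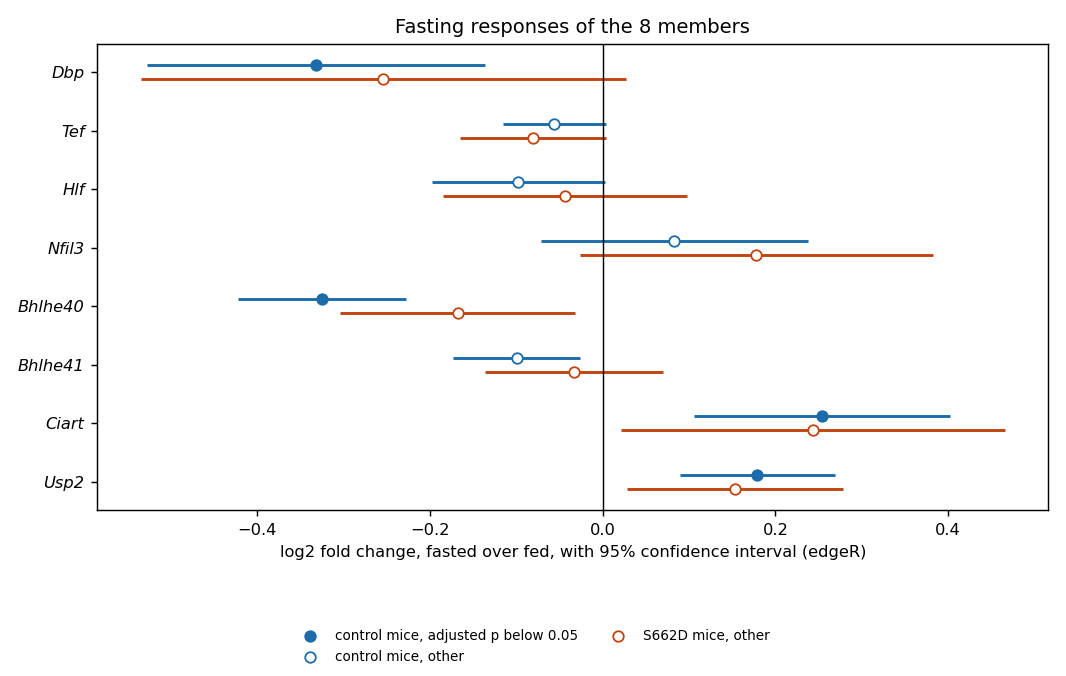
Log2 fold change of each member, fasted over fed (horizontal axis), with its 95% confidence interval, in control and S662D mice; filled points have an adjusted p below 0.05. Filled points are Dbp, Bhlhe40, Ciart and Usp2 in control mice, and the intervals of the 2 genotypes overlap for each member.

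The core clock genes that sit upstream of these outputs were described from a list of 13. In S662D mice 3 were called higher and 3 lower in each feeding state, where 4.69% of all genes were called fed and 5.57% fasted. The activator genes Arntl (log2 fold changes 0.55 fed and 0.50 fasted) and Npas2 (0.57 and 0.54) and the repressor Cry1 (0.39 and 0.40) were higher. The repressor genes Per2 (-0.59 and -0.55), Per3 (-0.70 and -0.82) and Nr1d2 (-0.57 and -0.69) were lower. In the labelled knockout libraries 0 of 13 were called against fasted controls, beside 0.0277% of all genes. An unadjusted p below 0.05 was found there for 2 of 13, beside 1097 of the 18063 genes tested. Against fasted S662D 6 of 13 were called, beside 7.34% of all genes, with Arntl, Npas2 and Cry1 lower and Per2, Per3 and Nr1d2 higher. Fasting raised Per1 in control mice (0.36) and S662D mice (0.41) and lowered Nr1d1 in control mice (-0.24).

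Genes described elsewhere as targets of the PAR bZIP factors were not called where Dbp and Tef were lower. Of a list of 5, 4 were tested (Pdxk, Por, Alas1 and Tspo) and 0 were called in S662D against control in either feeding state. Over all genes tested, 4.69% were called fed and 5.57% fasted. The log2 fold changes of the 4 lay between -0.07 and 0.10, and 0 had an unadjusted p below 0.05. Of the 18063 genes tested, 3798 fed and 3757 fasted had such a p. Tspo was low, at 3.89 ± 1.07 CPM in fed controls (SD, n = 10), and targets outside these 4 genes were not examined. Por, the electron donor of cytochrome P450 enzymes, rose on fasting in control mice by 0.15 on the log2 scale (edgeR adjusted p = 0.0122), and the other 3 were not called in that comparison.

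Among 15471 candidate genes (mean level 1 CPM or more), those most like each member over the 35 libraries were named by Pearson correlation of log2 CPM. They are a description, since the libraries share group differences, depth and library set. For Tef they were Nr1d2 (r = 0.952) and Per3 (r = 0.928), and for Ciart they were Per2 (r = 0.862) and Mthfd1l (r = 0.843). For Usp2 they were Per1 (r = 0.722) and Spsb1 (r = 0.689). For Dbp they were Camkv (r = 0.803) and Itm2a (r = 0.790), and for Hlf Mef2a (r = 0.815) and Gabra4 (r = 0.789). With group means removed, the value for Tef and Nr1d2 was 0.239, for Ciart and Per2 0.128, for Dbp and Camkv 0.713 and for Hlf and Mef2a 0.918. The likeness of Tef and Ciart to their closest clock genes thus lay mostly between groups, and that of Hlf and Dbp to their closest genes was also present within groups. Nfil3 was most like Cacng2 (0.767) and Csdc2 (0.763), Bhlhe40 like Ctdsp2 (0.782) and Hey1 (0.756), and Bhlhe41 like Phf21b (0.711) and Pipox (0.681).

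Within groups, 1 of the 28 pairs of members varied together over the 35 libraries after group means were removed. That pair was Dbp and Tef (Pearson r = 0.596, permutation p = 0.00046, adjusted p = 0.0129; Spearman rho = 0.618, permutation p = 0.00034, adjusted p = 0.00952). Without the 2 libraries farthest from the median of Dbp r was 0.531. With the mean of each library set within a group removed as well, r was 0.595 with an adjusted p of 0.0612, so the call was lost while the value stayed. Within fed controls r was 0.754 and within fasted controls 0.868 (n = 10 each). Nfil3 and Bhlhe40 passed with Spearman's rho (0.541, permutation adjusted p = 0.0349) and not with Pearson's r (0.466, adjusted p = 0.147). Hlf passed the threshold with neither Tef (r = 0.328, permutation adjusted p = 0.440) nor Dbp (r = -0.11, adjusted p = 0.792).

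**Figure D5:**
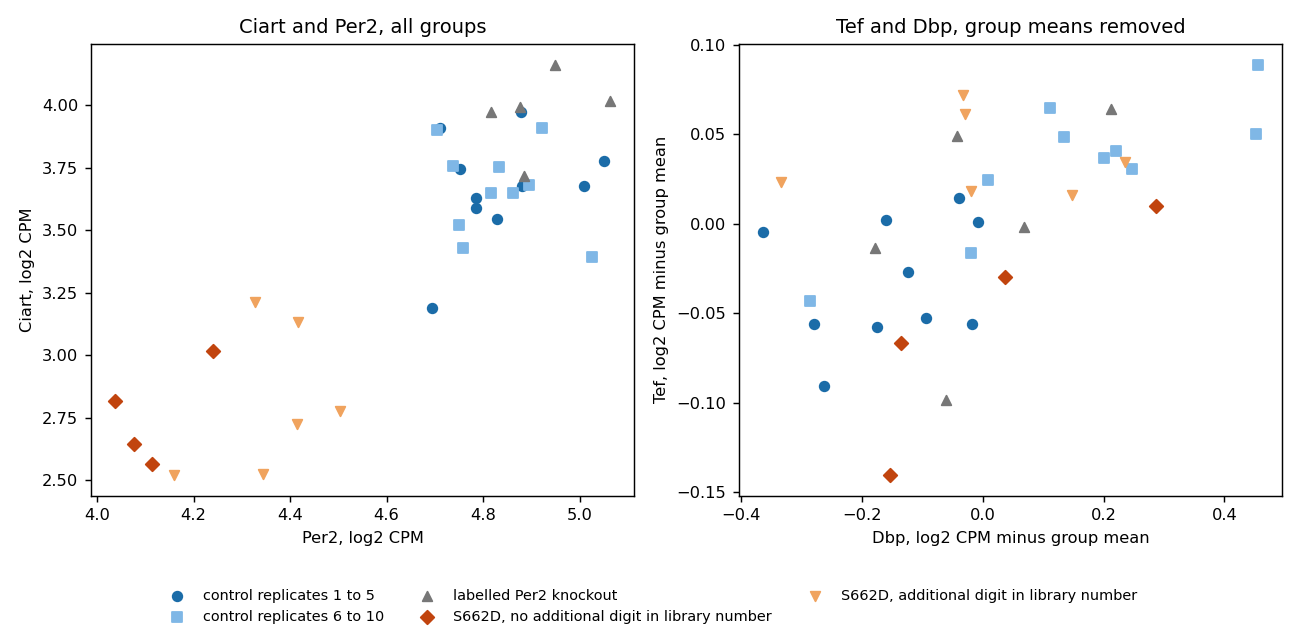
Left, Ciart against Per2 in log2 CPM for all 35 libraries; right, Tef against Dbp in log2 CPM after removal of each group's mean, with library set as colour and symbol. On the left S662D libraries form a separate cloud at lower values of both genes; on the right Tef and Dbp rise together (r = 0.596), with control replicates 6 to 10 mostly at the upper end.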

How the data were processed

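Per the file headers, each table deposited by the authors holds the raw counts of 1 library, made with featureCounts 2.0.1 on GENCODE vM12 exons of mm10, summed by gene name, with paired reads, all alignments of multi-mapping reads and no strand option; the submitters' processing notes name STAR 2.7.10b. Groups came from the labels. From these counts, genes were filtered with filterByExpr (minimum count 10) and TMM-scaled; a single model with 1 coefficient for each group was fitted to the 35 libraries in edgeR 4.0.16 (R 4.3.3, glmQLFit and glmQLFTest). Benjamini-Hochberg adjustment was made within each comparison over its tested genes, and called means an adjusted p below 0.05. Depth was 17959586 to 37027342 counts, and the common biological coefficient of variation was 0.0900. CPM use TMM-scaled library sizes, and CPM per kb divide by exon length. The SE of an edgeR log2 fold change was taken as its absolute value divided by the square root of the test's F statistic. The 95% intervals were built from that SE and the t distribution. Correlations used 100000 permutations. Within each group, no 2 libraries were identical or agreed within sampling noise, and libraries of different groups were not compared in this way. The fit was tested on simulated data. The labels' replicate numbers do not pair libraries.

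The genes named are all 8 members, Per2, called genes of a 13-gene core clock list, tested genes of a 5-gene PAR bZIP target list, the 2 genes most like each member and genes overlapping a member. The members and lists were chosen with earlier results of these data known. Alternatives were other scaling, filters, DESeq2 1.42.0, fits on fewer groups or library sets, a replicate block and leaving out each library. One was chosen after seeing the data: controls 6 to 10 with S662D libraries lacking the additional digit.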

Additional observations from a re-analysis of the deposited data

Results flagged for a closer look

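Ciart in fed S662D replicate 3 stood at 8.78 CPM, apart from the other 4 fed S662D libraries (5.73 to 6.25 CPM), a gap beyond Dixon's 95% limit for 5 samples. It was the only one of 40 member and group combinations to pass that limit, and chance flags about 1 in 20. Ciart was called in fed S662D mice in each fit that left out 1 library, with log2 fold changes from -0.99 to -0.82.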

How the results depend on the processing

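Of 263 alternative counts of called members, 239 stayed within 1.5 times the main count, and no member value that was called changed direction. Fasting in control mice gave 4 called members, 2 within control replicates 1 to 5, 1 within 6 to 10 and 2 to 4 with 1 library left out (2 without fed replicate 6, 9 or 10 or fasted replicate 1, 3 or 10). Fasting in S662D mice gave 0, and 0 to 1 with 1 library left out (1, Bhlhe40, without fasted replicate 4). S662D against control gave 5 fed, 3 with control replicates 6 to 10, 2 with the additional digit as a term or without libraries that carry it, 3 with controls 6 to 10 and no such libraries, and 3 to 6 with 1 library left out (3 without S662D replicate 2, 3 or 4). It gave 4 fasted, 2 without libraries carrying the digit, alone or with controls 6 to 10. The labelled knockout against control gave 0, and 1 (Dbp) with controls 6 to 10. Control replicates 6 to 10 against 1 to 5 gave 0, 1 with DESeq2, 2 in fed mice alone and 0 to 1 with 1 library left out (1, Dbp, without fasted replicate 10). The pair that varied together was 1, and 0 once library sets were centred. Of 2080 values of single members, 78 lost and 12 gained a call, and 66 that were not called changed sign.

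Counts over all genes moved further. S662D against control called 847 genes fed (16 to 3106 across other settings, 66 to 1667 with 1 library left out) and 1007 fasted (20 to 3148, and 154 to 1802). The labelled knockout against S662D called 1325 (26 to 2986, and 521 to 1857) and against control 5 (2 to 99). Fasting called 701 in controls (304 to 1315) and 476 in S662D (7 to 683, and 311 without fasted replicate 2), and their difference 0 (486 with controls 1 to 5). The control sets differed in 69 (up to 1862 in fasted mice alone, and 29 to 321 with 1 library left out).

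With a replicate block, 3 members were called in fed S662D against control in place of 5, as Nfil3 and Bhlhe40 were lost. The block left the member count of the other comparisons within 1.5 times. Same-numbered libraries deviated together with correlations of -0.19 to 0.24, and at most 1 library per comparison correlated best with its own number, so the numbers give no pairing. The lowest counts, 117 for Ciart, limit the precision of single libraries. The causes of these dependences were not tested.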
